A study of Homo sapiens with 8 samples.

Results

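The genes described here encode the machinery that holds RNA polymerase II near the promoter and lets it go again. They are the 10 genes of a fixed list of names, looked up among the 60725 Ensembl identifiers of the deposited count table through GENCODE symbols, and all 10 were found and passed the filter on low counts. NELFA, NELFB, NELFCD and NELFE encode the subunits of the negative elongation factor, SUPT4H1 and SUPT5H encode DSIF, CDK9 and CCNT1 encode the kinase and the main cyclin of P-TEFb, and HEXIM1 and LARP7 encode proteins of the 7SK particle. Soon after initiation, DSIF and NELF bind the polymerase and hold it in a paused state. P-TEFb phosphorylates DSIF, NELF and the polymerase itself, upon which NELF leaves and DSIF travels on as an elongation factor. A large share of P-TEFb is kept inactive in the 7SK particle, where HEXIM1 inhibits the kinase and LARP7 protects the 7SK RNA.

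The cells were HAP1, a near-haploid human line derived from a chronic myeloid leukemia, in a single clone (SC9) that stably carries a catalytically dead Cas9 fused to the KRAB repressor. In all groups this clone was transduced with a lentiviral guide RNA, selected with puromycin and harvested for polyadenylated RNA at 144 h. The control group (3 libraries) received a guide against ADAM22, the NELFE knockdown (3 libraries) a guide against NELFE and the NELFB knockdown (2 libraries) a guide against NELFB, so that each group rests on 1 guide RNA in 1 clone. Between 22037423 and 24444185 single-end reads of 65 bases were assigned to genes per library. The study's methods call the knockdown replicates biologically independent, and how separate the control replicates were was not given in the labels. In such bulk RNA, fewer cells that express a gene and less RNA per cell cannot be told apart.

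The guide sites are shown because they define both knockdowns. Each is printed 5′ to 3′ on its own strand of GRCh38, with the PAM in capitals. The NELFE site (chr6:31958918-31958936, minus strand) lies 35 bases downstream of the start of the canonical transcript, in the untranslated part of exon 1, and the NELFB site (chr9:137255369-137255387, plus strand) lies 42 bases downstream of the start, in the coding part of exon 1.
NELFE guide site: gggcgcggccggagaccgtGGG
NELFB guide site: gccgagctggagggcgccgGGG

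Next to these, the 100 bases before the transcription start are shown for the genes whose mRNA is followed most closely below, read from the RefSeq promoter windows on GRCh38.p14 (250 bases before to 50 after each start, 13 windows for the 10 genes). Capitals mark the GC box (GGGCGG, or CCGCCC on the other strand) and the TATA motif (TATAAA, or TTTATA on the other strand), which share no letters that could overlap. The intervals are chr6:31958972-31959071 (minus strand) for NELFE, chr9:137255227-137255326 (plus) for NELFB, chr4:2008975-2009074 (minus) for NELFA, chr19:39445482-39445581 (plus) for the first of the SUPT5H windows and chr17:45148375-45148474 (plus) for HEXIM1.
NELFE: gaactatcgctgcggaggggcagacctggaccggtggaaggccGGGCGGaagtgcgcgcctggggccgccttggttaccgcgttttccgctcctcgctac
NELFB: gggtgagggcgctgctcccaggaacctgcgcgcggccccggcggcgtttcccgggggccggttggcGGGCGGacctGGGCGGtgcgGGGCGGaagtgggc
NELFA: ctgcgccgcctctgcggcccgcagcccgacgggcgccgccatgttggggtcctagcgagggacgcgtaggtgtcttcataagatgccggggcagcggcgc
SUPT5H: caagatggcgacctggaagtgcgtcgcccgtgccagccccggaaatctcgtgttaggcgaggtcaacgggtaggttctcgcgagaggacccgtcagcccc
HEXIM1: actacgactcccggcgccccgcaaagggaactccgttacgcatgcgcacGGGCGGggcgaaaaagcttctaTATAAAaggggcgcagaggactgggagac
HEXIM1 was the only one of the 10 genes with a TATAAA match in its windows, a motif present in 11.5% of all 35116 RefSeq promoter windows. A GC box was present in 45% of all windows and in a window of 9 of the 10 genes. The NELFB window held 9 GC boxes, the NELFE window 3, the HEXIM1 window 2 and the SUPT5H window 1, outside the bases printed, while the NELFA window held none in these letters despite a GC content of 70.7% (median of all windows 58.7%). The windows were also searched for the bases of each guide next to an NGG PAM. They end too early to hold the whole guide site of either target. The longest match in the target's own window was thus 1 base for the NELFE guide and 5 bases for the NELFB guide. Sites further downstream in any gene are likewise not seen by this search. In the NELFA window the longest match on the PAM side was 4 bases for either guide, and over all members other than the targets it was 6 bases for the NELFE guide (CCNT1) and 8 bases for the NELFB guide (SUPT5H). Matches at least that long were present in 0.407% and 1.1% of all promoter windows. These shares hold for a single window, whereas the member values are the longest over several windows, so the shares understate how often such a match would occur among them. Whether these sites bind dCas9 was not tested.

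Before the results, the libraries were compared within each group. Control 3 and NELFE knockdown 3 deviated from their groups in the same direction across genes (correlation of deviations 0.60), and NELFE knockdown 3 differed more from the other NELFE libraries (chi-square per gene 21.1 and 21.4) than those did from each other (4.25). Among the control libraries, control 1 stood furthest from the others (17.1 and 29.4, against 5.76 between control 2 and control 3). The labels give no batch. Markers were read beside the HAP1 label, although gene counts of these markers cannot by themselves identify the line. ABL1 (440 to 1232 counts), BCR (416 to 726 counts) and VIM (8145 to 10808 counts) were present in every library, and PTPRC, CD3E, ITGAM and SPI1 had at most 2 counts. GATA1 was at 0 to 4 counts in control, 3 to 9 in the NELFE knockdown and 3 to 5 in the NELFB knockdown. CD34 was at 1 to 3 counts in control, 6 to 28 in the NELFE knockdown and 21 to 67 in the NELFB knockdown, and ABL1 was itself higher in both knockdowns (log2 fold change 0.91 and 1.23, adjusted p = 0.00799 and 0.00208, edgeR). Their part in the results below was not tested.

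The target genes were read first. Expression is given in TMM-normalized CPM, the counts of a gene scaled to a common library size. NELFE was at 50.5, 49.4 and 48.1 CPM in control and at 2.41, 2.37 and 2.98 CPM in the NELFE knockdown, which leaves 5.24% of the control mean. NELFB was at 74.4, 72.7 and 79.1 CPM in control and at 3.07 and 2.78 CPM in its own knockdown, or 3.88% of the control mean. Both guides thus left a similar small residue of their target, and no knockdown library came near a control library. The third target, ADAM22, was at 13.7, 12.9 and 11.3 CPM in the cells that received its guide, at 40.3, 47.4 and 29.9 CPM in the NELFE knockdown and at 35.5 and 41.1 CPM in the NELFB knockdown (log2 fold change 1.63 and 1.60, adjusted p = 0.00045 and 0.000387 in edgeR's quasi-likelihood test, Benjamini-Hochberg adjusted). For ADAM22 the control libraries are the treated ones, and these data hold no untargeted reference for it.

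**Figure D1:**
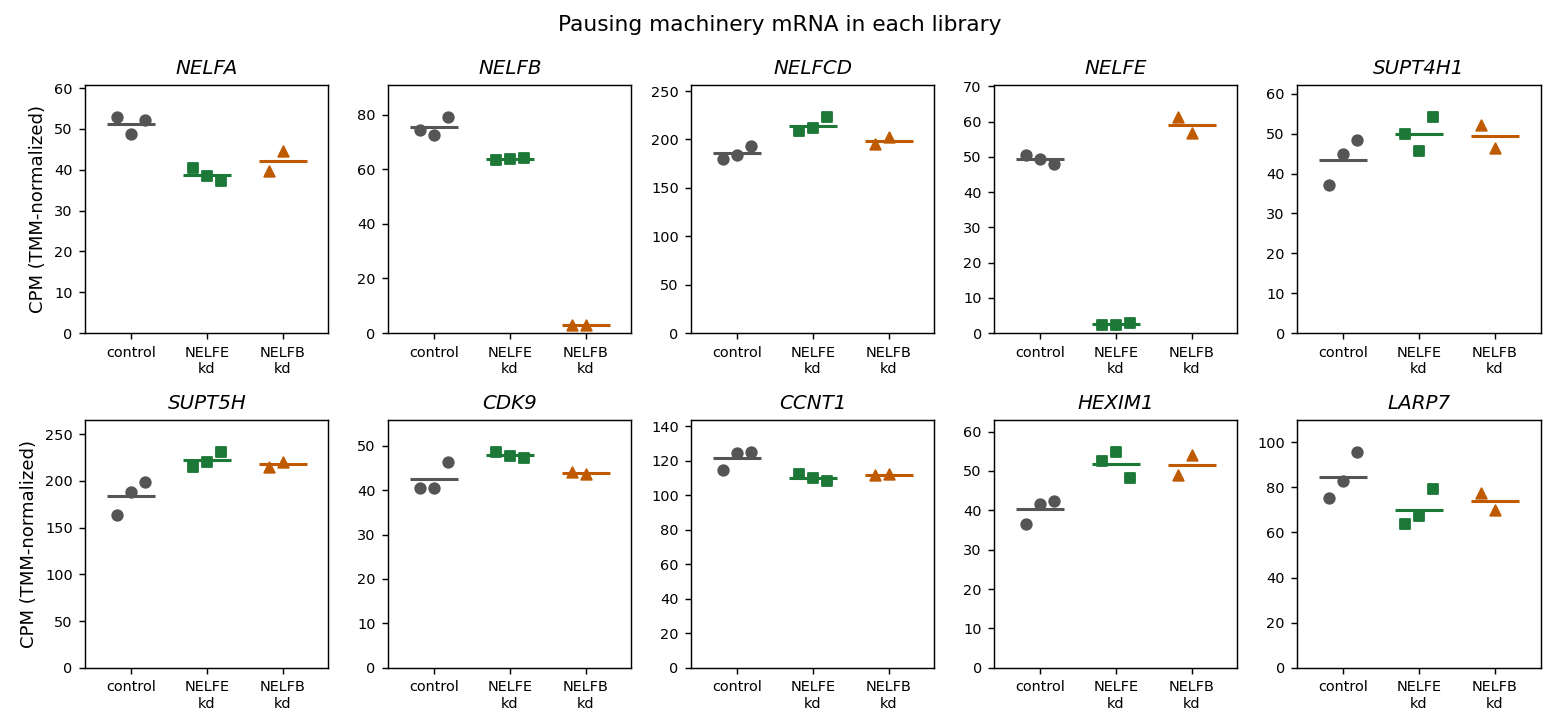
Expression of the 10 pausing genes in every library, in TMM-normalized CPM on a linear axis from 0 (circles, control; squares, NELFE knockdown; triangles, NELFB knockdown; horizontal lines, group means). The targeted subunits drop to between 2.37 and 3.07 CPM in their own knockdown, whereas the group means of the other genes lie between 75.5% and 129% of control.

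Of the 10 genes, 4 passed the test in the NELFE knockdown (1 higher and 3 lower, NELFE itself included), in a comparison in which 15.0% of all 16852 tested genes were called. In the NELFB knockdown 2 passed (HEXIM1 higher and NELFB lower), with a background of 19.5%. Between the knockdowns only the target genes NELFE and NELFB passed, where the background was 0.315%. With all 5 knockdown libraries set against control, as the study's own analysis combined them, 3 passed (HEXIM1 and SUPT5H higher, NELFA lower), with 26.0% of 16367 genes called. NELFE and NELFB are not read from this combined fit because each was silenced in only some of its libraries. The median log2 fold change of the 10 genes was 0.02 in the NELFE and 0.07 in the NELFB knockdown, beside medians of -0.01 and 0.00 over all genes tested. With so few genes these shares are not read further, and the genes are described one by one. Both knockdowns were set against the same 3 control libraries, so similar values in both are not independent of each other. The gene descriptions leave out calls made only with a replicate block, because the labels state no pairing. Those calls, among them SUPT5H in each knockdown, are listed at the end.

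The other NELF subunits did not move together. NELFA (ENSG00000185049, chr4:1982717-2041903), the subunit that contacts the polymerase, was at 52.9, 48.7 and 52.3 CPM in control, at 40.5, 38.5 and 37.1 CPM in the NELFE knockdown and at 39.6 and 44.5 CPM in the NELFB knockdown. All 5 knockdown libraries lay below all 3 control libraries. NELFA fell by 24.5% in the NELFE knockdown (log2 fold change -0.41, SE 0.08, adjusted p = 0.0108, edgeR), which was called under all 15 alternative settings. With the NELFB guide NELFA had a log2 fold change of -0.29 (SE 0.09), which missed the threshold (adjusted p = 0.0520, edgeR). It passed with DESeq2 (adjusted p = 0.0346), with DESeq2 size factors in edgeR (0.0460) and without NELFE knockdown 3 (0.0387). The difference between these values was -0.12 (95% interval -0.32 to 0.08), so that a difference between the knockdowns was not detectable with these libraries. In the combined fit NELFA fell (log2 fold change -0.36, adjusted p = 0.00563, edgeR), also without control 3 and NELFE knockdown 3 and under the other 14 settings.

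NELFB, which binds NELFE within the complex, was at 63.4, 63.9 and 64.0 CPM in the NELFE knockdown, below every control library and with little spread. This drop of 15.4% (log2 fold change -0.24, SE 0.07) passed narrowly (adjusted p = 0.0481, edgeR). The call is fragile, as it was lost in 11 of 15 settings, among them each fit without 1 library apart from control 1 (adjusted p of 0.0557 without NELFE knockdown 3 to 0.146 without control 3). The reverse case looked different. NELFE, the RNA-binding subunit, was at 61.2 and 56.9 CPM in the NELFB knockdown, both above the control libraries, with a log2 fold change of 0.26 (95% interval 0.05 to 0.47) that missed the threshold (adjusted p = 0.0819, edgeR). Without NELFE knockdown 3, a library of neither group, it passed (adjusted p = 0.0398, edgeR). How that library entered the call was not tested.

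NELFCD, which carries the C and D forms of the fourth subunit, was the NELF gene with the highest CPM. It was at 179.5, 184 and 194 CPM in control, at 208, 211.5 and 223 CPM in the NELFE knockdown and at 195 and 202 CPM in the NELFB knockdown. The groups did not overlap, and yet neither comparison passed (log2 fold change 0.21, adjusted p = 0.0652 for NELFE, and 0.10, adjusted p = 0.389 for NELFB, edgeR). In the NELFE knockdown it passed with DESeq2 (adjusted p = 0.0385) and with a minimum of 10 counts per library (0.0433). NELFCD shares 97.4% of its exon bases with the antisense gene CTSZ in GENCODE v44, and CTSZ held 1872 to 2210 counts, and the part of this overlap in the NELFCD counts, which were made with Gencode v24, was not tested. In sum over the 4 subunits, NELF mRNA was at 362.2, 353.5 and 364 TPM, the counts scaled by exon length and library in control, at 285.2, 284.5 and 275.5 TPM in the NELFE knockdown and at 261.5 and 263.3 TPM in the NELFB knockdown. These sums follow the loss of the target gene. They use the length of all annotated exons and were not made with other lengths, by which the levels of single subunits change. The size of the drop and the order of the knockdowns in these sums are therefore not read further.

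**Figure D2:**
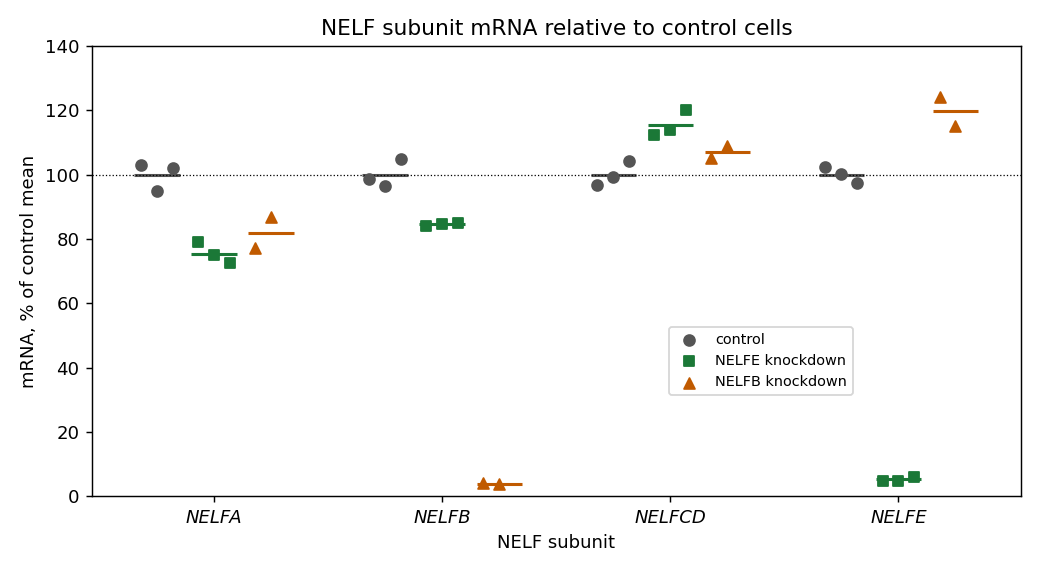
NELF subunit mRNA as a percentage of the control mean (y axis) for each subunit (x axis), with 1 symbol per library and lines at the group means. NELFA lies below 100% in all 5 knockdown libraries and NELFCD above it, while NELFB and NELFE each lie near 0 in their own knockdown and on opposite sides of 100% in the other.

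Across the 8 libraries, the gene whose profile came closest to NELFA among 63 candidates of the same pathway was POLR2A, the largest subunit of RNA polymerase II, with a root mean square difference of 0.10 on the log2 CPM scale after centring each gene. For NELFCD it was CDK9 (0.05). These are descriptions of 8 libraries that fall into 3 groups.

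Both DSIF genes had slightly higher means in the knockdowns, of which SUPT5H passed when the knockdowns were combined. SUPT5H (ENSG00000196235, chr19:39436156-39476670) encodes SPT5, the large DSIF subunit, and was at 163, 188 and 199 CPM in control, at 215, 219.7 and 231 CPM in the NELFE knockdown and at 215 and 219.9 CPM in the NELFB knockdown. Both knockdown groups lay above all control libraries and overlapped each other, and control 1 was the lowest library. Neither knockdown passed on its own (log2 fold change 0.28, adjusted p = 0.0504, and 0.25, adjusted p = 0.0868, edgeR). In the NELFE knockdown it passed with DESeq2 (adjusted p = 0.0290), without a filter (0.0391), with a minimum of 10 counts per library (0.0366) and without control 3 (0.0388). In the combined fit SUPT5H rose by 20.2% (log2 fold change 0.27, SE 0.07, adjusted p = 0.0186, edgeR), a call that was lost without control 1 (0.18, adjusted p = 0.0503) and without control 2 (0.28, adjusted p = 0.0563). Without control 3 and NELFE knockdown 3 it passed in each knockdown (adjusted p = 0.0357 and 0.0319). SUPT4H1, which encodes the small partner SPT4, was at 37.0, 44.9 and 48.4 CPM in control, at 49.8, 45.6 and 54.1 CPM in the NELFE knockdown and at 52.2 and 46.4 CPM in the NELFB knockdown. The groups overlapped, and no comparison passed in the fits without a replicate block. Its log2 fold change was 0.20 (95% interval -0.05 to 0.45) in the NELFE and 0.18 (-0.09 to 0.46) in the NELFB knockdown, so an increase as large as that of SUPT5H lies within the intervals. SUPT4H1 shares 89.9% of its exon bases with other genes in GENCODE v44, of which TSPOAP1-AS1, on the other strand, held 1 to 3 counts. The other, ENSG00000285897, lies on the same strand and is absent from the deposited counts. The part of this overlap in the SUPT4H1 counts was not tested.

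Of P-TEFb, neither gene passed in edgeR or DESeq2, in any comparison or under any of 15 settings, and only CCNT1 in the combined fit had an unadjusted p under 0.05 (0.0472). In that fit 6306 of all 16367 genes had an unadjusted p under 0.05. CDK9, the kinase, was at 40.5, 40.5 and 46.5 CPM in control, at 48.6, 47.7 and 47.3 CPM in the NELFE knockdown and at 44.1 and 43.6 CPM in the NELFB knockdown. On the log2 scale its change was 0.17 (95% interval -0.01 to 0.35, adjusted p = 0.176, edgeR) in the NELFE knockdown, where the libraries lay just above control 3, and 0.05 (-0.15 to 0.25) in the NELFB knockdown, where they lay within the control range. CCNT1, the cyclin, was at 114.5, 124.6 and 125.0 CPM in control, at 112.5, 110.0 and 108 CPM in the NELFE knockdown and at 111.6 and 112.1 CPM in the NELFB knockdown. All knockdown libraries lay below control, by a small margin against control 1, with log2 fold changes of -0.14 (-0.29 to 0.01) and -0.12 (-0.29 to 0.05).

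HEXIM1, the inhibitor of P-TEFb in the 7SK particle, was the one gene of the set, besides the guide target NELFB, that passed in both knockdowns. It was at 36.6, 41.7 and 42.5 CPM in control, at 52.4, 54.8 and 48.3 CPM in the NELFE knockdown and at 49.1 and 54.1 CPM in the NELFB knockdown. Every knockdown library lay above every control library. HEXIM1 rose by 28.8% in the NELFE knockdown (log2 fold change 0.37, SE 0.09, adjusted p = 0.0241, edgeR) and by 28.2% in the NELFB knockdown (0.36, SE 0.10, adjusted p = 0.0312), with a difference of 0.01 between them (95% interval -0.21 to 0.23). In the combined fit the adjusted p was 0.00634, and the call was made under all 15 settings. The single comparisons were less firm. In the NELFE knockdown the call was lost without control 2 (adjusted p = 0.0618), without NELFE knockdown 1 (0.0832) or without NELFE knockdown 2 (0.0956), at log2 fold changes of 0.32 to 0.39. In the NELFB knockdown it was lost without control 2 (adjusted p = 0.0682) and when either NELFB library was left out (0.120 without the first and 0.218 without the second), which leaves 1 library in that group that is assumed to vary like the others. HEXIM1 (ENSG00000186834) is a single-exon gene on chr17:45148475-45152099 and shares 14.3% of its exon with the antisense HEXIM2-AS1, which held 1 to 14 counts.

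LARP7, the 7SK-binding partner of HEXIM1, was at 75.1, 82.6 and 95.6 CPM in control, at 63.5, 67.4 and 79.4 CPM in the NELFE knockdown and at 77.5 and 70.0 CPM in the NELFB knockdown. The groups overlapped, and replicate 3 was the highest library of both the control and the NELFE group. Its log2 fold changes of -0.27 (95% interval -0.51 to -0.02) and -0.19 (-0.47 to 0.08) did not pass (adjusted p = 0.130 and 0.299, edgeR), although the first did without NELFE knockdown 3 (-0.37, adjusted p = 0.0378). With both knockdowns combined, the log2 value of LARP7 was -0.24, which missed the threshold (edgeR, adjusted p = 0.0872) but passed without a filter (-0.24, adjusted p = 0.0488), without control 1 (-0.32, adjusted p = 0.0355) or without NELFE knockdown 3 (-0.28, adjusted p = 0.0364). HEXIM1 and LARP7, which act in the same particle, therefore had values on opposite sides of 0. The 7SK RNA itself is not polyadenylated. A row annotated as 7SK held 4 to 16 counts per library, too few for a comparison. LARP7 shares 16.3% of its exon bases with the antisense MIR302CHG, which held 0 to 8 counts.

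**Figure D3:**
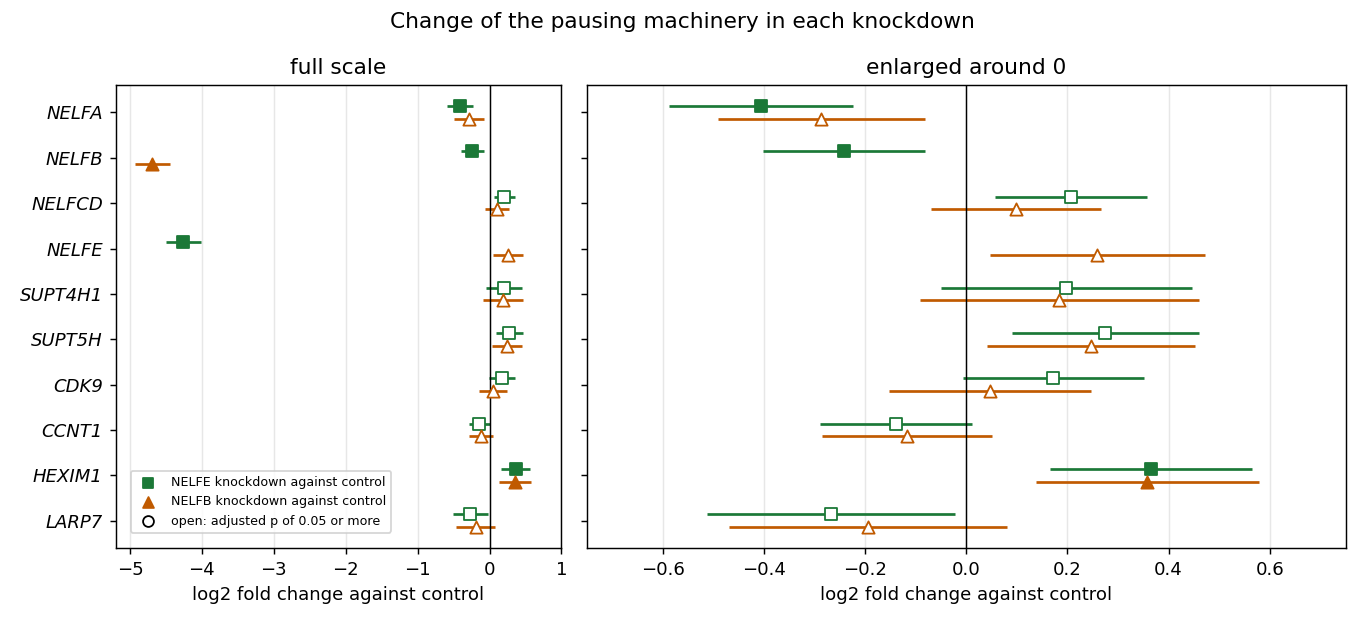
Log2 fold change of the 10 genes against control with 95% intervals (squares, NELFE knockdown; triangles, NELFB knockdown; filled, adjusted p under 0.05), on the full scale at left and enlarged around 0 at right, where the silenced targets fall outside the axis. Apart from the targets at -4.26 and -4.69, the values lie between -0.41 and 0.37.

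**Figure D4:**
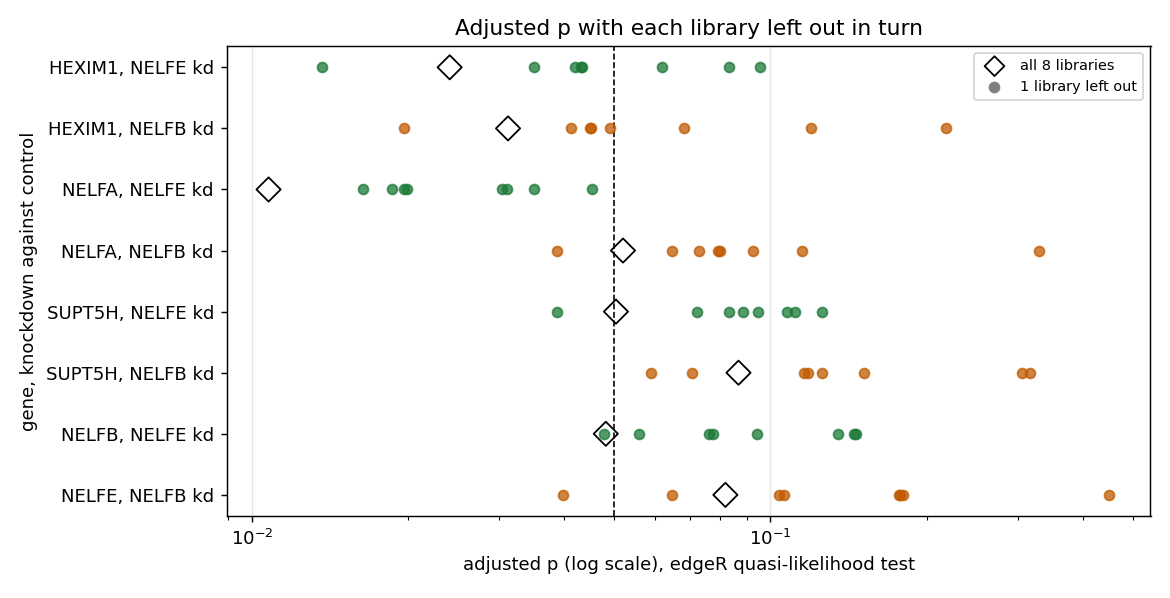
Adjusted p (log axis) of the non-target changes with all 8 libraries (diamonds) and with each library left out in turn (dots), with the threshold of 0.05 as a dashed line. The NELFA decrease in the NELFE knockdown is the only one of the 8 comparisons shown whose 8 dots all lie left of the line.

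The levels in control cells were compared per transcript length in TPM. With the length of all annotated exons, NELFB (122 ± 3.99 TPM, SD, n = 3) and NELFCD (121 ± 2.85) led the order and did not differ beyond their spread. SUPT5H (87.5 ± 7.70), SUPT4H1 (85.4 ± 10.3) and NELFE (76.3 ± 3.04) followed with overlapping neighbours, then CCNT1 (67.4 ± 2.62) and CDK9 (57.8 ± 3.84), which did not overlap each other. HEXIM1 (45.4 ± 3.10), LARP7 (42.6 ± 4.59) and NELFA (41.5 ± 1.94) closed the order with overlapping ranges. This order depends on the length used. By the canonical transcript, NELFB stood in place 5 (70.6 TPM) and LARP7 in place 3 (95.2 TPM), and by the coding length SUPT4H1 came second (124 TPM). With each of the 3 lengths NELFA was the lowest NELF subunit, NELFCD stood first or second, and CDK9 lay below CCNT1, although their ranges overlapped with the canonical length.

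The other factors of the pathway were read as 55 genes in 8 lists, of which 54 could be tested. ELL3, with 2 to 8 counts, did not pass the filter on low counts. In the NELFE knockdown 3 were higher and 3 lower, and in the NELFB knockdown 2 were higher and 3 lower. These are 6 and 5 of 54, beside 15.0% and 19.5% of all genes. Between the knockdowns none of the 54 passed in edgeR with the filter (2 at an unadjusted p under 0.05, 0 in DESeq2). Of all 16852 genes, 0.315% were called there and 863 had an unadjusted p under 0.05. Without the filter, 3 members and list genes together passed there, 2 of them members, beside 161 genes in all. The median log2 fold change of the list against control was -0.01 in the NELFE and -0.03 in the NELFB knockdown. In the combined fit 7 of 53 were higher and 4 lower, beside 13.3% and 12.7% of all genes tested (26.0% in both directions).

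The genes that passed in both knockdowns were TRIM28, CDC73 and POLR2H. CDC73 encodes parafibromin, a subunit of the PAF1 complex that accompanies elongating polymerase, and was at 59.0, 66.1 and 68.4 CPM in control, at 82.5, 79.7 and 89.8 CPM in the NELFE knockdown and at 83.3 and 83.9 CPM in the NELFB knockdown. It rose in both without overlap (log2 fold change 0.38, adjusted p = 0.0136, and 0.37, adjusted p = 0.0173, edgeR), and the second call was lost when either NELFB library was left out (adjusted p = 0.150 without the first and 0.106 without the second). TRIM28, also known as KAP1, recruits the 7SK particle with P-TEFb to promoters and is also the corepressor that KRAB domains bind, which all groups here share through dCas9-KRAB. It was at 531, 630 and 672 CPM in control, at 477.5, 466 and 509.5 CPM in the NELFE knockdown and at 441 and 491 CPM in the NELFB knockdown. TRIM28 fell in both (-0.33, adjusted p = 0.0395, and -0.39, adjusted p = 0.0290, edgeR). These calls were lost in 8 and 4 of 15 settings, at an adjusted p of at most 0.135 and 0.242, and they were lost in both without control 2 (0.123 and 0.0886) or control 3 (0.115 and 0.0762). Without 1 library of its own group, the call was lost for NELFE knockdown 1 (0.123) and 2 (0.135) and for NELFB knockdown 1 (0.242) and 2 (0.0840), and the NELFE call was also lost without either NELFB library (0.0685 and 0.0644). POLR2H, a small polymerase subunit shared by all nuclear RNA polymerases, was at 75.4, 79.3 and 82.5 CPM in control, at 61.8, 58.6 and 69.0 CPM in the NELFE knockdown and at 56.0 and 55.9 CPM in the NELFB knockdown. It fell in both without overlap (-0.32, adjusted p = 0.0248, and -0.50, adjusted p = 0.00517, edgeR). The second call was lost when either NELFB library was left out (adjusted p = 0.0699 and 0.0503), and the first in 6 of 15 settings (0.0503 to 0.105), each a fit without 1 library, namely control 2 or 3, NELFE knockdown 1 or 2, or either NELFB library. In the combined fit CDC73, TRIM28 and POLR2H were called under all 15 settings.

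Of the remaining calls in 1 knockdown, H2AZ1 was the largest. It encodes the histone variant H2A.Z of promoter nucleosomes and was at 510.5, 677 and 746 CPM in control, at 427, 435 and 588 CPM in the NELFE knockdown and at 363 and 354 CPM in the NELFB knockdown. The NELFB group lay below all control libraries, whereas NELFE knockdown 3 lay above control 1. H2AZ1 fell by 44.4% in the NELFB knockdown (log2 fold change -0.85, SE 0.17, adjusted p = 0.00841, edgeR) and had a value of -0.42 in the NELFE knockdown (adjusted p = 0.0889), which passed without NELFE knockdown 3 (-0.58, adjusted p = 0.0151) and without control 1 (-0.56, adjusted p = 0.0203). With that guide it also passed with DESeq2 (adjusted p = 0.0460), without a filter (0.000186) and without control 3 and NELFE knockdown 3 (0.0188). The NELFB call was lost when either NELFB library was left out (adjusted p = 0.0885 and 0.0718). MLLT3, a super elongation complex subunit (AF9), was at 12.5 to 12.7 CPM in control and at 16.8 and 17.0 CPM in the NELFB knockdown, where it rose (0.42, adjusted p = 0.0234, edgeR). That call was lost without a filter (adjusted p = 0.0671), without control 2 (0.0700), control 3 (0.0590) or either NELFB library (0.156 and 0.124). In the NELFE knockdown its value was 0.31 (adjusted p = 0.0571), which passed with a minimum of 10 counts per library (0.0483). In the combined fit MLLT3 was called in 14 of 15 settings and lost only without control 2 (adjusted p = 0.0525, edgeR). H2AZ1 was called there in 9 of 15 settings, at log2 fold changes of -0.717 to -0.455 over all of them.

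In the NELFE knockdown, 3 more genes passed, named here after their values were seen. POLR2A was at 524, 540.5 and 566.5 CPM in control and fell to 442.5, 459.6 and 433 CPM (log2 fold change -0.29, adjusted p = 0.0227, edgeR), and was at 499 and 543 CPM in the NELFB knockdown. SUPT6H, the histone chaperone SPT6, rose (0.33, adjusted p = 0.0366), as did the small subunit POLR2L (0.32, adjusted p = 0.0365). Their values in the NELFB knockdown were 0.30 and 0.18, and that of SUPT6H passed without a filter (adjusted p = 0.0412), with a minimum of 10 counts per library (0.0484), without control 3 (0.0325) and without control 3 and NELFE knockdown 3 (0.0163). None of these passed in the direct comparison of the knockdowns (adjusted p = 0.809 for POLR2A, 0.990 for SUPT6H and 0.983 for POLR2L). Each call was lost in some fits without 1 library, namely in 4 of 8 for POLR2A and in 6 of 8 for SUPT6H and POLR2L, with adjusted p-values of up to 0.0856, 0.103 and 0.134. For POLR2A these were control 2 and 3 and NELFE knockdown 1 (the highest) and 2. For SUPT6H they were control 2, all NELFE libraries (the highest without NELFE knockdown 2) and both NELFB libraries, and for POLR2L control 1 and 2 (the highest without control 2), NELFE knockdown 1 and 3 and both NELFB libraries. The POLR2A call was also lost without control 3 and NELFE knockdown 3 together (-0.24, adjusted p = 0.0664, edgeR). With only the libraries of the comparison, those of SUPT6H (0.0591) and POLR2L (0.0565) were lost. In the combined fit SUPT6H was called under all 15 settings (log2 fold change 0.220 to 0.405), POLR2L in 10 and POLR2A in 2.

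Among the close relatives of P-TEFb and HEXIM1, none of 6 genes passed in a single knockdown (edgeR, with 1 at an unadjusted p under 0.05 in each and 0 in DESeq2). Over all 16852 genes, 15.0% and 19.5% were called in the NELFE and NELFB knockdown, and 5211 and 5854 had an unadjusted p under 0.05. With 6 genes these counts are not read as a result about the list. HEXIM2, the paralog of HEXIM1 and able to replace it in the 7SK particle, was at 1.60, 1.42 and 1.62 CPM in control, at 2.08, 2.24 and 2.28 CPM in the NELFE knockdown and at 2.37 and 2.22 CPM in the NELFB knockdown, on only 32 to 57 counts per library. Neither knockdown group overlapped control, while they overlapped each other, with log2 fold changes of 0.50 and 0.57 (adjusted p = 0.0890 and 0.0725, edgeR). In the combined fit HEXIM2 rose (0.53, adjusted p = 0.0326), a call lost in 8 of 15 settings, among them without control 2 (0.120), control 3 (0.0750), NELFE knockdown 2 (0.0607) or either NELFB library (0.0668 and 0.0572). HEXIM1 and HEXIM2 are neighbours on chromosome 17 and both had higher values in both knockdowns. HEXIM2 shares 79.3% of its exon bases with HEXIM2-AS1 and ENSG00000267288 in GENCODE v44. The part of this overlap in its counts was not tested. The other genes called only in the combined fit belong to the PNUTS phosphatase list, which counteracts P-TEFb. TOX4 (0.24) and PPP1CB (0.22) were higher and PPP1CC (-0.28) was lower, the last 2 named after their values were seen, and without control 2 their adjusted p-values were 0.113, 0.1101 and 0.129. The calls were made in 11, 7 and 9 of 15 settings, in the same order. TOX4 passed in the NELFB knockdown with a minimum of 10 counts per library (adjusted p = 0.0441, edgeR), without control 3 (0.0466), without NELFE knockdown 3 (0.0408) and without both (0.0183), the last also for PPP1CB (0.0421). PPP1CC passed without control 1 in the NELFE (adjusted p = 0.0178, edgeR) and NELFB knockdown (0.00750), and in the latter also with DESeq2 (0.0371), without a filter (0.00990) and without NELFE knockdown 3 (0.0416). TCEA3, a tissue-restricted relative of the cleavage factor TFIIS, had the smallest adjusted p of its list at 18 to 37 counts per library, with values of 0.45 and 0.76 that did not pass (adjusted p = 0.249 and 0.0721, edgeR).

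**Figure D5:**
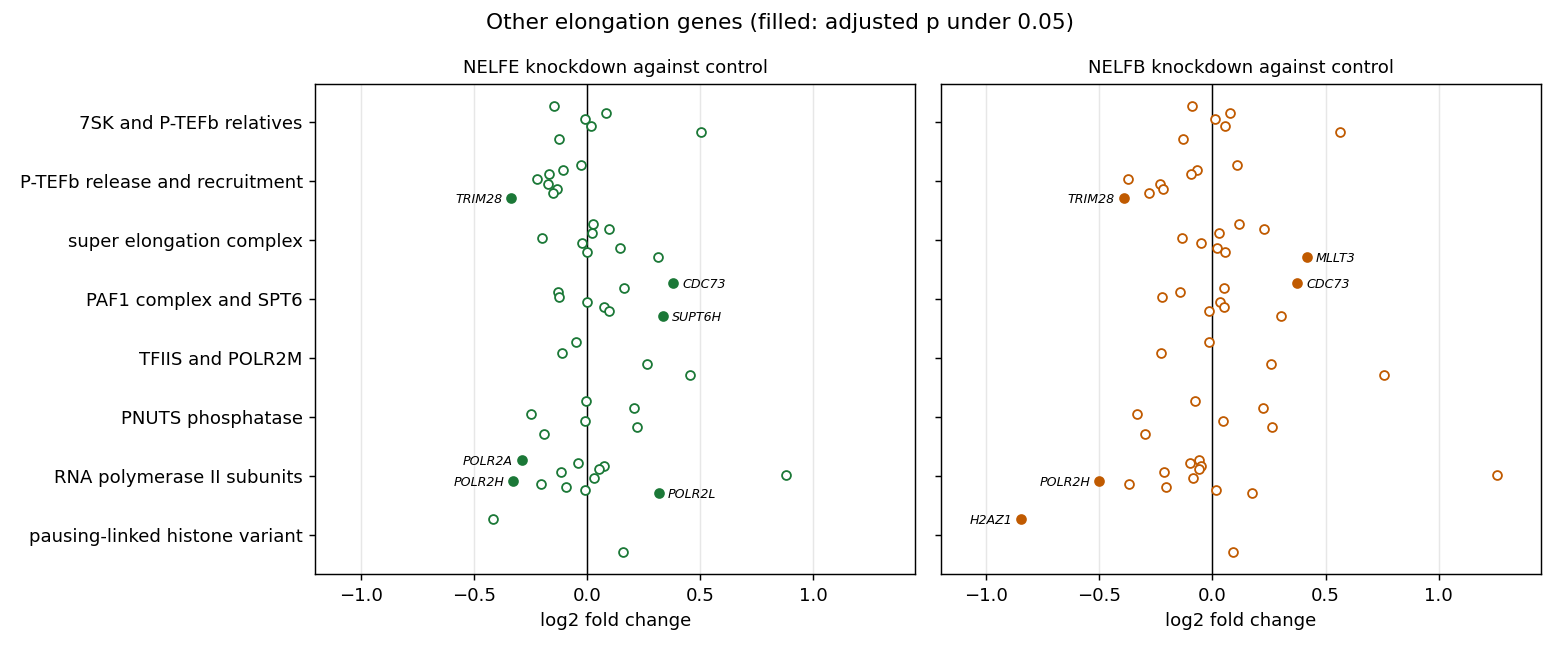
Log2 fold change (x axis) of the other elongation genes by list (y axis) in the NELFE knockdown (left) and the NELFB knockdown (right), 1 circle per gene, filled and named where the adjusted p was under 0.05. Most genes lie near 0, with 6 filled circles at left and 5 at right. The open circle far to the right is POLR2F, which had only 1 to 11 counts per library.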

How the data were processed

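Polyadenylated RNA of 8 HAP1 dCas9-KRAB samples was sequenced by the authors, who aligned the reads to GRCh38 with STAR 2.5.4a after FastQC 0.11.6 and deposited raw counts of reads per gene of Gencode v24, not normalized and without strand. STAR counts leave out reads that map to several places or overlap several genes, which lowers the values of overlapping genes. Columns were assigned to samples by their names and the sample labels, and 0 per-sample columns were left unused. Symbols, coordinates and lengths came from GENCODE v44 by Ensembl identifier.

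The whole count table was fitted with the robust quasi-likelihood model of edgeR 4.0.16 under R 4.3.3 (filterByExpr filter, TMM factors), with Benjamini-Hochberg adjustment over all genes tested and calls at an adjusted p under 0.05. Both knockdowns were compared with control, and with one another, in a model with 3 group means, and a second fit set all knockdown libraries against control. CPM are TMM-normalized, TPM use exon lengths, which were available for 99.88% of the counts, and intervals are 95%. Alternatives were DESeq2 1.42.0, DESeq2 size factors, no filter, a minimum of 10 counts per library, a replicate block, only the libraries of a comparison, each library left out, and other gene lengths. Leaving out control 3 together with NELFE knockdown 3, and the canonical length, were added after seeing the data. The genes and lists were chosen with earlier results of these data known. Named from the lists were the genes called in both knockdowns, otherwise the gene with the smallest adjusted p of each list, and the gene nearest in pattern to NELFA and NELFCD (log2 CPM with a pseudocount of 0.5). Genes outside this rule are marked as named after their values were seen.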

Additional observations from a re-analysis of the deposited data

Results flagged for a closer look

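The silenced genes NELFE and NELFB were the members whose change differed between the knockdowns in a direct test. NELFB mRNA was higher with the NELFE guide than with its own guide by 4.44 on the log2 scale (63.8 against 2.92 CPM, adjusted p = 6.1e-09, edgeR), and NELFE differed by -4.51 (2.58 against 59.0 CPM, adjusted p = 6.1e-09, edgeR). Both differences hold the loss of the target together with the smaller shift of the same gene in the other knockdown, and all libraries of each group lay on their side.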

How the results depend on the processing

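No fold change of a member or of a named list gene changed its sign in a called result under any alternative. Of the 600 comparisons of member values with an alternative, 554 kept their side of the threshold, 27 passed only under the alternative and 19 were lost. The number of all genes called between the knockdowns was 53, 91 with DESeq2 and 161 without a filter. Without a filter, 11 members and list genes together were called in the NELFB knockdown (7 with it), beside 4123 genes in all (3290 with it). With only the libraries of the comparison, 6 members and list genes passed for the NELFE knockdown (10 with all libraries), beside 1758 genes in all (2520 with all libraries), and 5 members in the combined comparison from the model of the 3 groups (3 in the main fit), which count the target genes NELFE and NELFB. Without control 3 and NELFE knockdown 3, 11 members and list genes were called in the NELFB knockdown and 141 genes in all between the knockdowns.

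With each library left out in turn, 2 to 4 members, 3 to 15 members and list genes and 990 to 3123 genes in all passed with the NELFE guide. With the NELFB guide the ranges were 1 to 4, 1 to 16 and 603 to 4316, with the lowest total without NELFB knockdown 1. Between the knockdowns 2 members and 27 to 78 genes in all were called (141 without control 3 and NELFE knockdown 3), and in the combined comparison 2 to 4 members, 6 to 20 members and list genes and 2688 to 5125 genes in all. The cause of these shifts was not tested.

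The replicate numbers of the labels do not state a pairing. Between libraries of the same number, the correlation of deviations was 0.389, 0.074 and 0.599 for control and NELFE knockdown. It was -0.045 and -0.020 for control and NELFB knockdown and 0.119 and 0.288 for the knockdowns. The numbers were not taken to pair the samples across all groups, because the values for control and NELFB knockdown were negative. For control and NELFE knockdown the values were positive, and each control library correlated best with the NELFE library of its own number. Whether libraries of the same number were handled together is not given in the labels and was not tested. With the replicate block, 7 members, 19 members and list genes and 4763 genes in all passed for the NELFE knockdown, 5, 14 and 4811 for the NELFB knockdown, 195 genes in all between the knockdowns, and 6, 22 and 5636 in the combined comparison (2520, 3290, 53 and 4255 genes in all without it). The members gained with the block were SUPT5H (0.28, adjusted p = 0.00671, edgeR), NELFCD (0.0196) and LARP7 (0.0141) in the NELFE knockdown, SUPT5H (0.30, adjusted p = 0.0113), NELFA (0.0308) and NELFE (0.0462) in the NELFB knockdown, and NELFCD (0.0207), SUPT4H1 (0.22, adjusted p = 0.0426) and LARP7 (0.0458) in the combined comparison. Of the named list genes, H2AZ1 (0.00251) and MLLT3 (0.0327) were gained in the NELFE knockdown, SUPT6H (0.00939) in the NELFB knockdown, TOX4 (0.0227 and 0.00801), PPP1CB (0.0263 and 0.0131) and PPP1CC (0.0201 and 0.0355) in the NELFE and the NELFB knockdown, and POLR2A (0.0443) in the combined comparison.

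The effect of depth or of the number of libraries on the calls was not tested. HEXIM2, TCEA3 and POLR2F rest on low counts.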
